A study of Mus musculus with 15 samples.

Results

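The late fetal liver (E17.5) was compared with the early fetal liver (E12.5) in C57BL/6 mice, an inbred laboratory strain. Both groups were whole livers with no treatment and no altered allele named in the labels, and embryonic day was the only labelled difference between them. They make up 6 of the 15 arrays of a developmental series, 3 at E17.5 and 3 at E12.5. The other 9 arrays, at E14.5, in newborns and in adults aged 8 weeks, are used for side-by-side values and for the estimate of spread. Nothing in the labels says whether the replicates came from separate litters or fetuses or from pooled livers, so the p-values reflect the spread between these samples alone.

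During this window the mouse liver is the main blood-forming organ of the fetus: it fills with erythroid and other blood precursors, while hepatoblasts mature into hepatocytes that store, secrete and metabolise. Toward birth, blood formation begins to move to the bone marrow, and hepatic enzymes for lipid, glycerol and sugar handling come into use. Many long intergenic noncoding RNAs (lincRNAs) and transcribed ultraconserved elements, genome segments shared almost letter for letter between distant mammals, are known to be stage-dependent, although most have no assigned function. In bulk RNA, fewer cells of a type and less RNA per cell cannot be told apart.

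RNA depleted of ribosomal RNA was labelled with Cy3 by random priming and hybridised to Agilent 1-colour arrays. A level is given here as log2 of the processed spot signal minus the 75th percentile of all noncontrol probes on the same array, so 0 is that percentile and 1 unit is a 2-fold step. Levels of different probes cannot be set against each other. A feature was tested if the scanner software marked its probe as well above background on all 3 arrays of E17.5 or all 3 of E12.5 (measured there, in what follows), and it was called where limma's adjusted p (Benjamini-Hochberg over all tested features) was below 0.05. The share of noncontrol spots with that mark was 80.9% on E17.5 replicate 1 and 50.9% to 59.6% on the other 5 arrays. Negative-control spots carried it at 55.8% on E17.5 replicate 1 and at 4.0% to 6.92% on the other 5, and E17.5 replicate 3 was scanned apart from the other 5 arrays, together with the newborn and adult arrays. Each result below is therefore set beside its value within the shared scan (E17.5 replicates 1 and 2 against E12.5 replicates 1 to 3) or without E17.5 replicate 1 where these change it.

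The defining markers of the liver's cell types could not be used to check the tissue label. Of 40 hepatocyte markers only Gk and Tmlhe, and of 24 erythroid markers only Tfrc, carried a symbol on the array, and none of the symbols listed for stem and progenitor cells, megakaryocytes, granulocytes, macrophages, lymphocytes or stellate cells did. The files pair 112 gene symbols with probes through RefSeq accessions. The other probes carry lincRNA, ultraconserved-element or sequence-database names, or the maker's ID alone.

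Of 31188 tested features, 3086 (9.89%) were higher and 2845 (9.12%) lower at E17.5, 19% in all. At least a 2-fold change was fitted for 2749 of those higher and 1864 of those lower. The median difference over all tested features was -0.14 with this scaling and -0.04 with the percentile taken over probes well above background on all 15 arrays. All 3 E17.5 arrays lay above all 3 E12.5 arrays for 3782 features (12.1%) and below them for 4584 (14.7%). On every array of both stages 25151 features were measured, and of these 1871 (7.44%) were called higher and 2455 (9.76%) lower. Another 3130 passed through the E17.5 arrays alone and 2907 through the E12.5 arrays alone. Those features carried the mark on all arrays of 1 stage only, which favours higher values at that stage. Of the first set 1214 were called higher and 15 lower, and of the second 1 was called higher and 375 lower. Within the shared scan 2586 features (8.29%) were called higher and 3127 (10%) lower. Of the 5931 features called with all 6 arrays 4533 were called there too, each in the same direction. The main calls rest on a spread estimated over all 15 arrays, and the other stages can be tighter. For Gapdh the SD was 0.46 at E17.5 and 0.36 at E12.5, against 0.07 at E14.5, 0.05 in newborns and 0.21 in adults. When only the 6 compared arrays set the spread, 1640 features were called higher and 761 lower, 7.7% in all.

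Among the genes with a symbol, the largest rise over all 6 arrays was that of Amy2a5, a pancreatic-type alpha-amylase, and the next was that of H2ac18, a core histone H2A gene. Within the shared scan, where H2ac18 rose by 2.80, Ldhal6b rose by 3.18 and stood ahead of it. Gk, the glycerol kinase that lets hepatocytes use glycerol, and Hmgcs1, which makes HMG-CoA in the cytosol for cholesterol synthesis, were also higher at E17.5. Rpl13a, a protein of the large ribosomal subunit, was lower. In all 69 symbols were tested, of which 6 rose and 4 fell, and 2 of 5 tested RefSeq accessions without a current symbol fell. Together, 12 of 74 RefSeq features (16.2%) were called, against 19% of all tested features. Of the accessions without a symbol, NM_001008551 had 3.59, 3.80 and 4.21 at E17.5, against 5.16, 4.91 and 5.18 at E12.5, with no overlap (difference -1.22 ± 0.25, adjusted p = 0.00312, limma). It was not called when only the 6 arrays set the spread (adjusted p = 0.0674, limma). NM_001177418 had 2.91, 3.26 and 4.12 at E17.5 and 4.73, 4.07 and 4.10 at E12.5, which overlap (difference -0.87 ± 0.29, adjusted p = 0.0489), and its call was lost without E17.5 replicate 1 (adjusted p = 0.169, limma).

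Start-site windows from RefSeq (250 bases before to 50 after the start) are shown for 3 of the risers to give their sequence context: the gene with the largest difference, the histone gene, and the sterol-pathway gene. Windows were found for 8 of the 10 called symbols. The motif TATAAA, the motif CCAAT and the motif CACCCCAC were searched on both strands of all 3 windows, and capitals mark every match, so ATTGG in capitals is CCAAT on the opposite strand.
Amy2a5 promoter (GRCm38.p6, chr3:113258650-113258949, minus strand): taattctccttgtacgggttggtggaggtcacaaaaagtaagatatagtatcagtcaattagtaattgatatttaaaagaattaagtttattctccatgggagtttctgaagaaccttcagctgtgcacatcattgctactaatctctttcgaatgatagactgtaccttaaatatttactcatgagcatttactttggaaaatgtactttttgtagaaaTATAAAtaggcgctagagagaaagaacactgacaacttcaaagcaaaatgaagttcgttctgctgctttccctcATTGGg
H2ac18 promoter (GRCm38.p6, chr3:96245247-96245546, plus strand): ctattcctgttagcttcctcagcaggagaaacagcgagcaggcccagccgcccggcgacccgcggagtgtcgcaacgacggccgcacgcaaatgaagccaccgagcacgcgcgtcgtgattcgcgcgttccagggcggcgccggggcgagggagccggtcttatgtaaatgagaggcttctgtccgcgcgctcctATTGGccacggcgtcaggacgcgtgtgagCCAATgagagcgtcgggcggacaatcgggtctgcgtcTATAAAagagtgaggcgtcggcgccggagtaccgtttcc
Hmgcs1 promoter (GRCm38.p6, chr13:119690101-119690400, plus strand): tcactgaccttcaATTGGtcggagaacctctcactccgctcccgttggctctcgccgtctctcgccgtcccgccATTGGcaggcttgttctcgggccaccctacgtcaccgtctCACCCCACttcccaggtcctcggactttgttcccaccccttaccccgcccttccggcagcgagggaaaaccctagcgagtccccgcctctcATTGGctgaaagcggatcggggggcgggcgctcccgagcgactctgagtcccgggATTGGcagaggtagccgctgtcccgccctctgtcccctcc
TATAAA occurred in 13.6% of 32851 such windows, CCAAT in 37.4% and CACCCCAC, the core letters of a sterol regulatory element, in 2.87%. Amy2a5 held TATAAA at -30 from the start and CCAAT at 45. H2ac18 held CCAAT at -55 and -26 and TATAAA at 12. Hmgcs1 held CCAAT at -237, -176, -45 and 11 and CACCCCAC at -136. These matches describe the letters only, and the array data do not bear on binding there.

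Amy2a5 had levels of 5.41, 5.87 and 5.42 on the E17.5 arrays, against -4.96, -5.47 and -5.89 on the E12.5 arrays. The groups did not overlap, and no E12.5 array had the probe well above background. Its E12.5 values are the lowest value that each array shares among 12854 to 15988 probes, so they are not a measured level. The difference is therefore a bound: Amy2a5 was at least 411-fold higher at E17.5 (adjusted p = 3.95e-11, limma, for the unbounded difference). Within the shared scan the adjusted p was 7.23e-06. Mean levels over the series were -0.58 ± 0.22 at E14.5, 5.56 ± 0.26 at E17.5, 6.03 ± 0.46 in newborns and 2.26 ± 0.28 in adults (SD, n = 3 each). Mouse pancreatic amylase genes are near-identical copies, so the signal may belong to any of them. Amy2a5 was the only one of 18 listed pancreatic exocrine genes with a symbol on the array, so the share of neighbouring pancreas in the samples was not tested.

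H2ac18 had levels of 5.48, 5.53 and 5.62 at E17.5, against 3.23, 2.45 and 2.46 at E12.5. Every E17.5 value was more than 2 log2 units above every E12.5 value. The difference was 2.83 ± 0.23 (SE), or 7.13-fold (adjusted p = 8.59e-07, limma), and about the same within the shared scan. The other H2A genes with a symbol did not pass the test. H2ac19, a near-identical copy from which a probe may not separate H2ac18, had 7.76, 7.23 and 8.55 at E17.5 and 8.93, 8.62 and 8.13 at E12.5 (difference -0.71 ± 0.31, adjusted p = 0.132, limma). Without E17.5 replicate 3 that difference was -1.06 and passed (adjusted p = 0.0137, limma), whereas the same arrays fitted within the shared scan did not pass (adjusted p = 0.0524). H2ac23 had -0.28, -0.19 and 0.27 at E17.5 and 1.63, 1.26 and -0.25 at E12.5, with adjusted p = 0.142, and 0.0114 without E12.5 replicate 3 (limma). Mean H2ac18 levels were 2.71 ± 0.45 at E12.5, 3.35 ± 0.16 at E14.5, 5.54 ± 0.07 at E17.5, 6.49 ± 0.15 in newborns and 7.64 ± 0.14 in adults (SD, n = 3 each).

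Gk had levels of -0.32, 0.17 and 0.01 at E17.5, against -1.78, -1.95 and -1.30 at E12.5. The groups were separated by about 1 log2 unit at their nearest values. The difference was 1.63 ± 0.29 (SE), 3.09-fold (adjusted p = 0.00111, limma). Gk was called under each of the 21 alternatives that could test it, but its size varied, from 0.82 with normexp background correction to 1.84. Tmlhe, the enzyme that starts carnitine synthesis and the other hepatocyte marker with a symbol, had 0.52, 0.48 and 1.37 at E17.5 and 0.41, 0.71 and 0.12 at E12.5, which overlap (adjusted p = 0.385, limma). Hmgcs1 had 7.55, 7.79 and 8.29 at E17.5, against 7.41, 6.70 and 6.93 at E12.5. All 3 E17.5 values lay above all 3 E12.5 values, and the difference of 0.86 ± 0.28 (SE) was near the threshold (adjusted p = 0.0422, limma). That call was lost within the shared scan (0.66, adjusted p = 0.117) and when replicate 2 or 3 of either stage was left out.

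The other 2 risers with a symbol rested on few arrays. Ldhal6b, a lactate dehydrogenase relative known from testis, had 0.94 and 1.37 on E17.5 replicates 1 and 2 but -1.51 on replicate 3, against -1.58, -2.36 and -2.12 at E12.5. The array from the other scan thus lay just above the E12.5 values, and the difference was 2.29 over all 6 arrays (adjusted p = 0.00793, limma) and larger within the shared scan. Tcstv1, known from early mouse embryos, had -1.75, -1.16 and -0.89 at E17.5 and -1.34, -4.89 and -3.15 at E12.5, where 2 arrays had it well above background, and the groups overlap. Its difference was 1.86 with all 6 arrays and 0.98 without E12.5 replicate 2. It was called with all 6 arrays (adjusted p = 0.0442) but in only 6 of 21 alternatives, and not within the shared scan (adjusted p = 0.218, limma).

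Of the genes that fell, Rpl13a had the smallest spread at E12.5. Its levels were 5.40, 5.75 and 6.27 at E17.5, against 6.83, 6.72 and 6.84 at E12.5. The groups did not overlap, and the difference was -0.99 ± 0.23 (SE), 1.99-fold lower (adjusted p = 0.00712, limma). When only the 6 arrays set the spread, Rpl13a was not called (adjusted p = 0.153, limma). That fit called 3 RefSeq features higher and 0 lower. Rpl13a has processed pseudogenes, from which an array probe may not separate it. Gm4312, a predicted gene, had 1.25, 0.87 and 1.58 at E17.5, against 2.45, 2.52 and 2.34 at E12.5 (difference -1.20 ± 0.23, adjusted p = 0.00227, limma). With the spread from only the 6 arrays its adjusted p was 0.0731 (limma). Tsnax, the partner of the RNA-binding protein translin, had 4.65, 5.26 and 5.60 at E17.5, against 6.17, 5.91 and 5.99 at E12.5 (difference -0.85 ± 0.24, adjusted p = 0.0243, limma). Aida, which binds axin, had 0.98, 0.76 and 1.57 at E17.5 and 2.20, 1.58 and 1.98 at E12.5, so that their nearest values nearly met (difference -0.82 ± 0.25, adjusted p = 0.0347, limma). Without E17.5 replicate 1 the calls of Tsnax and Aida were lost, at adjusted p = 0.0872 and 0.0864 (limma). Leaving out E12.5 replicate 1 or 3 (for Aida also E17.5 replicate 2) ended them too. Probes as bright as Tsnax (mean level 5 to 6) had median distances from the E12.5 mean of -0.737, -0.425 and 0.0243 on E17.5 replicates 1 to 3. For probes above 6, such as Rpl13a, these were -0.65, -0.338 and 0.0927. The part of the falls of Tsnax, Rpl13a and NM_001008551 that goes with this shift of bright probes was not tested.

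The transferrin receptor Tfrc, through which erythroid precursors take up iron, did not pass the test. It had 8.10, 8.38 and 9.27 at E17.5 and 9.50, 8.62 and 8.53 at E12.5, which overlap (difference -0.30 ± 0.33, adjusted p = 0.563, limma). B2m, the light chain of class I antigen-presenting molecules, had 7.83, 8.23 and 8.69 at E17.5 and 8.11, 7.07 and 6.93 at E12.5 (difference 0.88 ± 0.31, adjusted p = 0.0636, limma). It passed without E12.5 replicate 1 (1.25, adjusted p = 0.00543) and without E17.5 replicate 1 (1.09, adjusted p = 0.0402). Disp1, which releases lipid-modified Hedgehog proteins, had 1.57, 2.18 and 2.50 at E17.5, all below 3.14, 2.60 and 2.94 at E12.5. Its difference was -0.81 ± 0.28 (adjusted p = 0.0568, limma), and it passed within the shared scan (-1.02, adjusted p = 0.0434) and without E17.5 replicate 3.

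Genes used as references in expression assays did not move as 1 block. Of 8 tested members of that list 0 rose and 1, Rpl13a, fell, beside 9.89% of all tested features higher and 9.12% lower, with a median difference of -0.18 beside -0.14 over all tested features. Gapdh, a glycolytic enzyme, had 8.90, 9.43 and 9.82 at E17.5 and 9.80, 9.17 and 9.20 at E12.5, a difference of 0.00 ± 0.26 (SE). Actb had 6.56, 6.95 and 7.65 at E17.5 and 6.68, 7.58 and 7.24 at E12.5, a difference of -0.11 ± 0.29 (SE). Of the 4 growth-machinery genes tested 1, again Rpl13a, fell, with a median of -0.56, and Tuba1b, Nono and Hsp90ab1 did not pass. No member of the chemokine and antigen-presentation list passed (4 tested, 1 of them at an unadjusted p under 0.05 in limma), nor of the list on Hedgehog release and vesicle traffic (3 tested, 1 likewise). With so few members, counts of 0 or 1 are near the 19% called over all tested features. The 6 tested vomeronasal receptor genes, known from sensory neurons, had differences below 0 and none passed, also without adjustment.

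**Figure D1:**
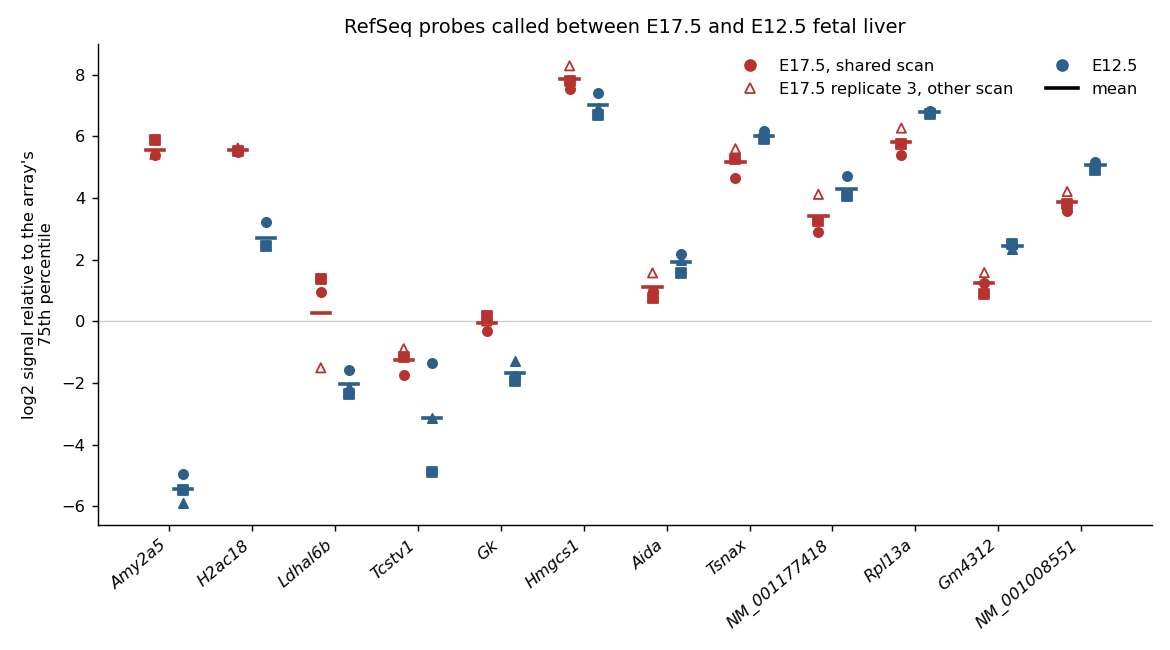
Levels of the 12 called RefSeq features on each array, as log2 signal relative to the array's 75th percentile (vertical axis); E17.5 arrays stand left of the E12.5 arrays, circles, squares and triangles are replicates 1, 2 and 3, and bars are means of 3 arrays. The 3 Amy2a5 values at E17.5 lie between 5.41 and 5.87 and those at E12.5 at the bottom of the scale, while the open triangle of Ldhal6b (E17.5 replicate 3) lies at -1.51 near the E12.5 values.

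The noncoding probe families are given here beside the 19% called over all tested features. Of 1507 tested lincRNA exon probes, 117 rose and 103 fell (14.6% called). Of 261 probes for ultraconserved elements 21 rose and 19 fell (15.3%), and of 587 probes with another accession 52 rose and 48 fell. The lincRNA probes not named by exon had 12 up and 1 down of 167 with mouse lincRNA names (7.78%), and 18 up and 4 down of 291 with human lincRNA names (7.56%). The share that rose among the called depended on the scaling. With quantile normalization 10 mouse lincRNA probes rose and 9 fell, and 12 human lincRNA probes rose and 20 fell. The split over all features also turned, to 3116 up and 3976 down. When the test was run only on probes measured at both stages, 18% of all features were called. Of 123 mouse lincRNA probes 6 were then called (4.88%), each higher, and of 191 human lincRNA probes 5 rose and 4 fell (4.71%).

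**Figure D2:**
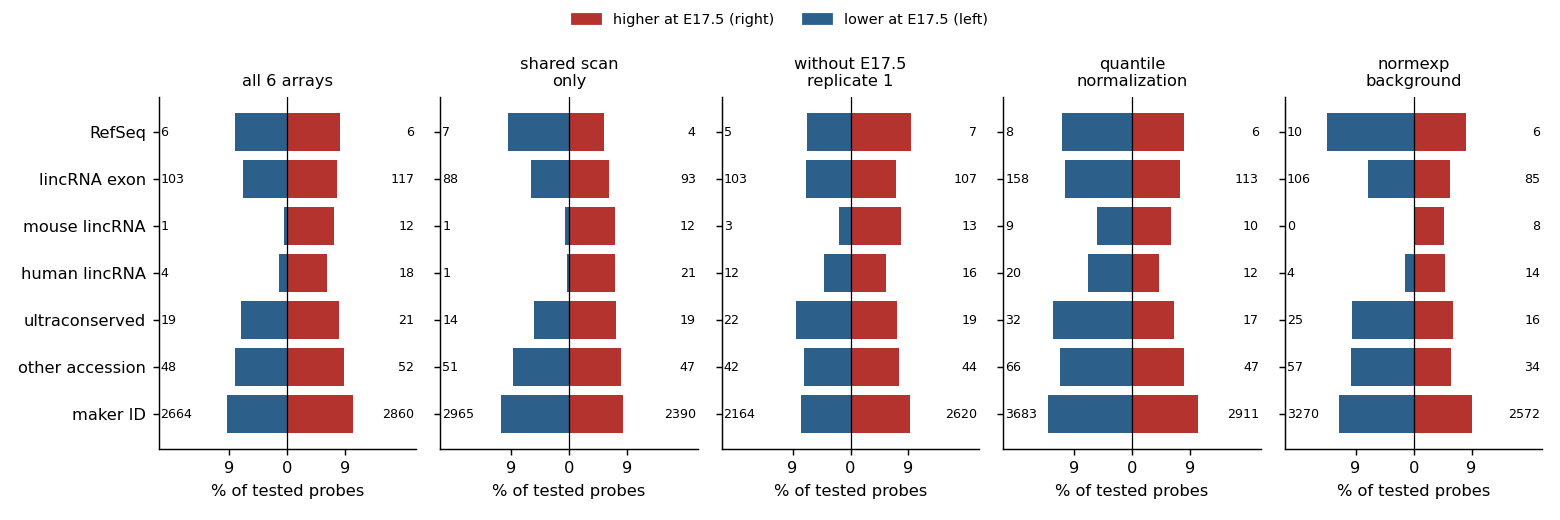
Share of tested probes called higher (red, to the right) and lower (blue, to the left) at E17.5 in each probe family, in percent, with the numbers of probes printed at the edges, for all 6 arrays and 4 alternatives. The mouse lincRNA family holds 12 probes higher and 1 lower with all 6 arrays, and 10 higher and 9 lower with quantile normalization.

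The lincRNA exon probe with the largest rise among those measured at both stages was MM9LINCRNAEXON11530-. It had 6.13, 6.36 and 6.66 at E17.5, against 3.03, 2.18 and 2.39 at E12.5, a difference of 3.85 ± 0.27 (SE), 14.4-fold (adjusted p = 1.40e-07, limma). Its mean was 4.41 ± 0.20 at E14.5, 6.22 ± 0.32 in newborns and 7.43 ± 0.20 in adults (SD, n = 3 each). MM9LINCRNAEXON11332- had 1.02, 1.67 and 1.75 at E17.5, against -1.13, -1.63 and -1.51 at E12.5 (difference 2.90 ± 0.25, adjusted p = 1.07e-06, limma). MM9LINCRNAEXON11061- and MM9LINCRNAEXON11368- rose by 2.94 and 2.61, and in both E17.5 replicate 3 was the lowest E17.5 array, at -0.54 and -0.49. MM9LINCRNAEXON11933+ was marked as well above background on no E12.5 array. With 0.18, 0.26 and -0.42 at E17.5, it was at least 8.72-fold higher than at E12.5 (adjusted p = 5.39e-06, limma, for the unbounded difference).

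Other exon probes fell to low levels at E17.5. MM9LINCRNAEXON11765+ had -1.17, -0.92 and -0.72 at E17.5, against 3.01, 3.37 and 4.15 at E12.5, a difference of -4.45 ± 0.39 (SE), 21.8-fold lower (adjusted p = 1.59e-06, limma). Its E14.5 mean was 0.03 ± 0.81 (SD, n = 3). MM9LINCRNAEXON10219- had -1.19, -1.63 and -0.04 at E17.5, against 3.01, 2.68 and 3.15 at E12.5 (difference -3.90 ± 0.80, adjusted p = 0.00323, limma). MM9LINCRNAEXON10137- had -2.91, -2.57 and -2.49 at E17.5, against 0.52, 0.31 and 0.50 at E12.5, 8.57-fold lower (adjusted p = 6.14e-06, limma). MM9LINCRNAEXON10321- fell by 3.09, and its groups did not overlap.

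Several exon probes close in number were called lower on the same strand. In the numbering of the lincRNA exon probes, which the files do not tie to positions, the window of 16 consecutive numbers on one strand with the most calls in one direction was 11957 to 11972 on the minus strand, chosen after the values were seen. Of its 16 minus-strand probes 10 were tested and 9 fell, beside 9.12% of all tested features. In 9 of the 10 all 3 E17.5 arrays lay below all 3 E12.5 arrays, beside 14.7% of all tested features. These shares cannot be read against each other. Of the 10, 7 passed only through the E12.5 arrays, a route that favours probes lower at E17.5. On all arrays of both stages 3 were measured, and 2 of these fell. MM9LINCRNAEXON11957- had -1.24, -1.0 and -2.62 at E17.5, against 0.81, 1.34 and 0.96 at E12.5 (difference -2.66 ± 0.34, adjusted p = 7.43e-05, limma). MM9LINCRNAEXON11966- had -1.93, -2.64 and -0.13 at E17.5, against -0.11, 1.33 and 1.13 at E12.5, where the nearest values almost met (difference -2.35 ± 0.77, adjusted p = 0.0458, limma), and it was not called within the shared scan (adjusted p = 0.054). The other 7 calls came from probes that some or all E17.5 arrays did not have well above background, so their fitted differences are not measured folds. The filter and the choice of window favoured their direction, so their p-values are given as description and not as support for a fall. MM9LINCRNAEXON11971- had -1.68, -3.65 and -2.57 at E17.5, where 2 arrays had it well above background, against 1.75, 1.95 and 2.07 at E12.5 (adjusted p = 0.000176, limma). MM9LINCRNAEXON11969- had -1.44, -3.48 and -4.29 at E17.5, where 1 array had it well above background, against 1.20, 1.52 and 1.36 at E12.5 (adjusted p = 8.09e-05, limma).

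MM9LINCRNAEXON11959- had -4.77, -5.26 and -5.39 at E17.5, where no array had it well above background, against -0.24, -0.28 and 0.31 at E12.5. It was at least 8.16-fold lower at E17.5 (adjusted p = 8.59e-07, limma, for the unbounded difference). MM9LINCRNAEXON11960-, inside the stretch and measured on all 6 arrays, had -0.26, 0.17 and -2.04 at E17.5 and 0.33, 0.32 and -0.29 at E12.5 and did not pass (adjusted p = 0.249, limma). Neighbours by number on either side did not follow: MM9LINCRNAEXON11955- (adjusted p = 0.266) and MM9LINCRNAEXON11973- (adjusted p = 0.647, limma) had overlapping groups. Of the 16 plus-strand probes with the same numbers 1 was tested and 0 were called, and 13 were well above background on no E12.5 array. Within the shared scan 6 of the minus-strand probes were called lower (10% of all tested features), without E17.5 replicate 1 7 were (7.54%), and without E12.5 replicate 1 9 were (9.29%). Leaving out 1 array at a time left 6 to 9 of the 10 called. These refits kept the filter and the window chosen with all 6 arrays. Their counts are therefore no independent support for the stretch and cannot be read against the shares of all features. At E14.5 the mean level was -3.12 for MM9LINCRNAEXON11969- and -2.83 for MM9LINCRNAEXON11971-.

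**Figure D3:**
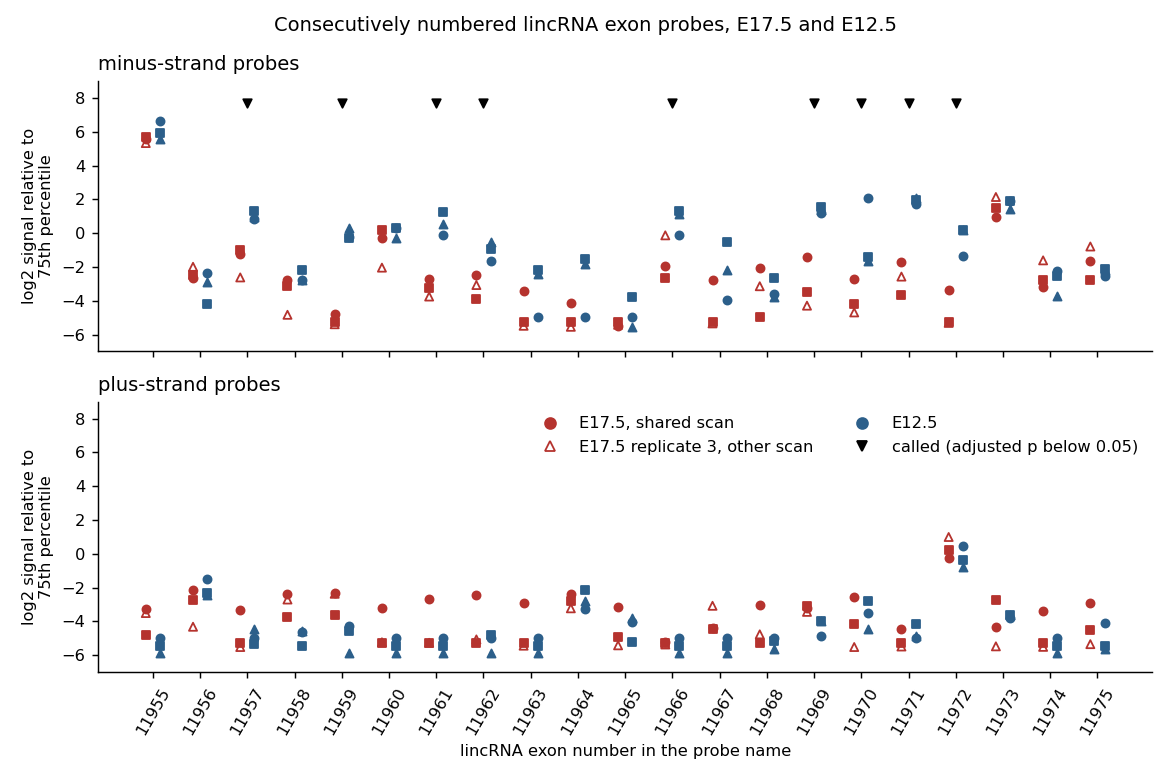
Levels of lincRNA exon probes 11955 to 11975 on each array, minus strand above and plus strand below, as log2 signal relative to the array's 75th percentile; circles, squares and triangles are replicates 1, 2 and 3, E17.5 left of E12.5. Black triangles mark the 9 called minus-strand probes, all lower at E17.5; plus-strand probes lie mostly near the bottom of the scale, with E17.5 replicate 1 often above the others.

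Probes for both strands of a locus allowed a further comparison. Both strands were tested for 346 of 1728 lincRNA exons, and 14 exons (4.05%) were called on both, 9 in the same direction and 5 in opposite directions. Of the 692 probes of these exons 12.7% were called, beside 19% of all tested features. In 3 of the 14, the probe of 1 strand was well above background on no array of 1 stage. Within the shared scan the call of at least 1 strand was lost for MM9LINCRNAEXON10078, MM9LINCRNAEXON10196, MM9LINCRNAEXON10624, MM9LINCRNAEXON10898, MM9LINCRNAEXON11002 and MM9LINCRNAEXON11384. Across the 346 exons the differences of the plus and minus probes correlated weakly (Pearson r = 0.186, over exons that share the same 6 arrays). MM9LINCRNAEXON11442 rose on both strands, by 2.15 and 1.96. Its plus-strand probe had 5.71, 6.20 and 6.22 at E17.5, against 3.67, 3.83 and 4.20 at E12.5. MM9LINCRNAEXON12066 moved in opposite directions. The plus strand rose by 1.31 ± 0.31, with 0.35, -0.14 and -0.93 at E17.5 against -1.54, -1.22 and -1.90 at E12.5 (adjusted p = 0.0088, limma). The minus strand fell, with a difference of -1.47 ± 0.23 and levels of -1.87, -1.99 and -2.56 at E17.5 against -0.55, -0.57 and -0.89 at E12.5 (adjusted p = 0.000399, limma). MM9LINCRNAEXON11002 was also called higher on the plus strand and lower on the minus strand, but its plus-strand probe was well above background on no E12.5 array, and the minus-strand call was lost within the shared scan (adjusted p = 0.0918, limma).

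**Figure D4:**
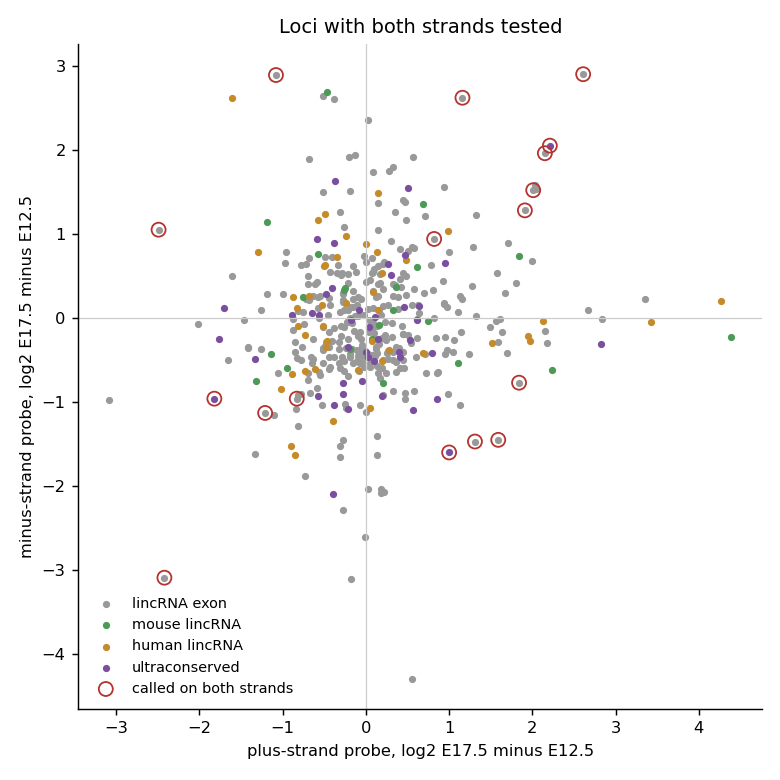
Difference E17.5 minus E12.5 of the minus-strand probe (vertical, log2) against that of the plus-strand probe (horizontal, log2) for every locus with both strands tested, coloured by probe family. Red circles mark the 17 loci called on both strands, 14 lincRNA exons and 3 ultraconserved elements, of which 11 moved in the same direction.

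Of the named mouse lincRNAs, mouselincRNA0453+ had the largest difference. It had 4.79, 4.47 and 4.47 at E17.5, against 0.38, 0.29 and -0.10 at E12.5, a difference of 4.39 ± 0.24 (SE), 20.9-fold (adjusted p = 9.90e-09, limma). The groups were more than 4 log2 units apart. Its mean was 1.40 ± 0.22 at E14.5, 5.57 ± 0.10 in newborns and 5.04 ± 0.35 in adults (SD, n = 3 each), and its adjusted p stayed at or below 0.000921 over 22 alternatives. By contrast, mouselincRNA0797+ had 0.24 and 0.76 on E17.5 replicates 1 and 2 but -1.54 on replicate 3, against -1.92, -2.41 and -2.93 at E12.5. Its difference was 2.24 (adjusted p = 0.00303, limma) and 2.92 within the shared scan. mouselincRNA0013- and mouselincRNA0706+ rose by 1.36 and 1.11 with all 6 arrays, and neither was called within the shared scan (adjusted p = 0.0541 and 0.101, limma) or without E17.5 replicate 2 or E12.5 replicate 3, and mouselincRNA0706+ also lost its call without E12.5 replicate 2.

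Among probes with human lincRNA names on this mouse array, humanlincRNA0111+ had 3.94, 4.63 and 4.73 at E17.5, against 2.30, 1.50 and 1.14 at E12.5 (difference 2.78 ± 0.50, adjusted p = 0.00134, limma). Its mean levels were 1.65 ± 0.59 at E12.5, 2.70 ± 0.15 at E14.5, 4.43 ± 0.43 at E17.5, 0.23 ± 1.33 in newborns and 2.13 ± 0.29 in adults (SD, n = 3 each). humanlincRNA0691+ had -1.22, -1.67 and -0.67 at E17.5 and was well above background on no E12.5 array, so it was at least 3.82-fold higher (adjusted p = 1.56e-06, limma, for the unbounded difference). humanlincRNA2438+ fell, with 4.17, 4.19 and 5.05 at E17.5 against 6.13, 5.63 and 5.56 at E12.5 (difference -1.30 ± 0.27, adjusted p = 0.00333, limma). humanlincRNA0272- and humanlincRNA0712- fell by 1.52 and 0.91, and humanlincRNA1145+ and humanlincRNA0367- rose by 1.47 and 1.43. Of these 4 only humanlincRNA0367- was also called within the shared scan (adjusted p = 0.0181, limma). humanlincRNA1145+ was called only with all 6 arrays or without E17.5 replicate 1 when 1 array at a time was left out, and humanlincRNA0712- lost its call without E17.5 replicate 3 or E12.5 replicate 1.

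Among the ultraconserved elements the split between risers and fallers turned with the processing. Against 21 up and 19 down as reported above, 17 rose and 32 fell with quantile normalization, and again 17 and 32 with background taken from negative-control probes, while 31 rose and 12 fell with no filter on dim probes. uc.427+ had 1.30, 1.48 and 1.78 at E17.5, against -0.98, -1.51 and -0.90 at E12.5 (difference 2.65 ± 0.58, adjusted p = 0.00497, limma), and it missed the threshold within the shared scan (adjusted p = 0.0533). uc.188 rose on both strands: uc.188+ had 0.34, 0.97 and 0.24 at E17.5 against -0.92, -2.32 and -1.87 at E12.5, and the minus-strand difference was 2.05 ± 0.27 (adjusted p = 9.39e-05, limma). uc.152- and uc.73+ were high on E17.5 replicates 1 and 2 alone. uc.73+ had 1.43 and 1.67 there and -0.91 on replicate 3, against -1.27, -1.75 and -1.76 at E12.5 (difference 2.33 ± 0.48, adjusted p = 0.00353, limma).

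Of the ultraconserved elements that fell, uc.452- had -1.84, -2.49 and -1.80 at E17.5, against -0.02, 0.24 and -0.08 at E12.5 (difference -2.09 ± 0.36, adjusted p = 0.00083, limma). uc.408- had 1.58, 1.43 and 2.16 at E17.5, against 2.82, 4.06 and 3.30 at E12.5, with no overlap (difference -1.67 ± 0.30, adjusted p = 0.00132, limma). uc.37+ fell by 1.77 and lost its call without E17.5 replicate 2 (adjusted p = 0.0503) or E12.5 replicate 2 (adjusted p = 0.055, limma). uc.195 moved in opposite directions on its strands, with a difference of 1.00 ± 0.31 on the plus strand and -1.60 ± 0.35 on the minus strand. Within the shared scan the minus-strand probe was not called (-1.51, adjusted p = 0.0551, limma).

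Probes that carry a sequence-database accession without a gene name gave differences of similar size. C89169 had 3.78, 3.72 and 2.67 at E17.5, against 0.77, 0.17 and -0.10 at E12.5 (difference 3.11 ± 0.34, adjusted p = 1.67e-05, limma). AF416735 had -0.06, 0.72 and 1.97 at E17.5, against 3.84, 3.92 and 4.42 at E12.5 (difference -3.19 ± 0.47, adjusted p = 0.000257, limma). Both groups were apart by over 1.8 log2 units at their nearest values. AV571911 and AK154456 rose by 2.25 and 1.79, and DV067603, CA532251 and AA667816 fell by 2.45, 2.20 and 2.09. BU939086 was called with all 6 arrays (adjusted p = 0.0497) but had -1.36 and -1.66 on E17.5 replicates 1 and 2 and 1.15 on replicate 3, and it was not called within the shared scan (adjusted p = 0.156, limma). AA667816 was not called there either (adjusted p = 0.0954), and without E12.5 replicate 1 its difference was -1.26 instead of -2.09. Without E17.5 replicate 3 the difference of BU939086 was 1.03 instead of 1.91.

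The largest measured differences belonged to probes with the maker's ID alone, which no file pairs with a gene. ASMM9PARTA024920 had 7.54, 8.14 and 7.83 at E17.5, against -0.86, -2.25 and -1.79 at E12.5, a 712-fold difference (adjusted p = 1.53e-10, limma). ASMM9PARTA026146 was 563-fold higher, with 6.45, 6.78 and 6.46 at E17.5 against -1.76, -2.83 and -3.13 at E12.5. ASMM9PARTA030100 had 0.96, 0.05 and 1.60 at E17.5, against 6.22, 7.26 and 6.71 at E12.5, 58.1-fold lower (adjusted p = 3.25e-08, limma). ASMM9PARTA031376 had -2.86, -1.64 and -2.31 at E17.5, all below 9.53, 4.29 and 4.20 at E12.5, where replicate 1 stood more than 5 log2 units above the other two. Its difference was -8.28 with all 6 arrays and -6.51 without that array. Over the series, the mean of ASMM9PARTA024920 was 3.75 ± 0.21 at E14.5 and 8.67 ± 0.27 in adults, and that of ASMM9PARTA030100 was 3.76 ± 0.11 at E14.5 and -5.65 ± 0.29 in adults (SD, n = 3 each).

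The arrays of both stages differed from each other in a way that followed probe brightness. Over 1187 probes measured at both stages with a mean level below -2, the median distance from the E12.5 mean was 0.36 on E17.5 replicate 1, 0.04 on replicate 2 and -0.38 on replicate 3. Over 7785 probes with a mean level above 2 it was -0.59, -0.32 and 0.05. For probes with a mean level of 5 to 6, 74 were called higher and 189 lower of 953, for those above 6 the counts were 63 and 175 of 1702, and for those of -2 to -1 they were 286 and 225 of 4672. The share called lower was thus highest at 5 to 6 and smaller again among the brightest probes. E12.5 replicate 1 stood apart within its stage: its median distance from the mean of the other E12.5 arrays was 0.403 for means of -3 to -2 and 0.582 for means above 6, and it correlated with them at 0.946 and 0.954 (Pearson r over 25113 features), against 0.981 between those arrays. Of features called with all 6 arrays, E17.5 replicate 3 lay at or below the highest E12.5 value in 83 of 3086 called higher and at or above the lowest E12.5 value in 92 of 2845 called lower. The part that background and scan have in these calls was not tested.

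**Figure D5:**
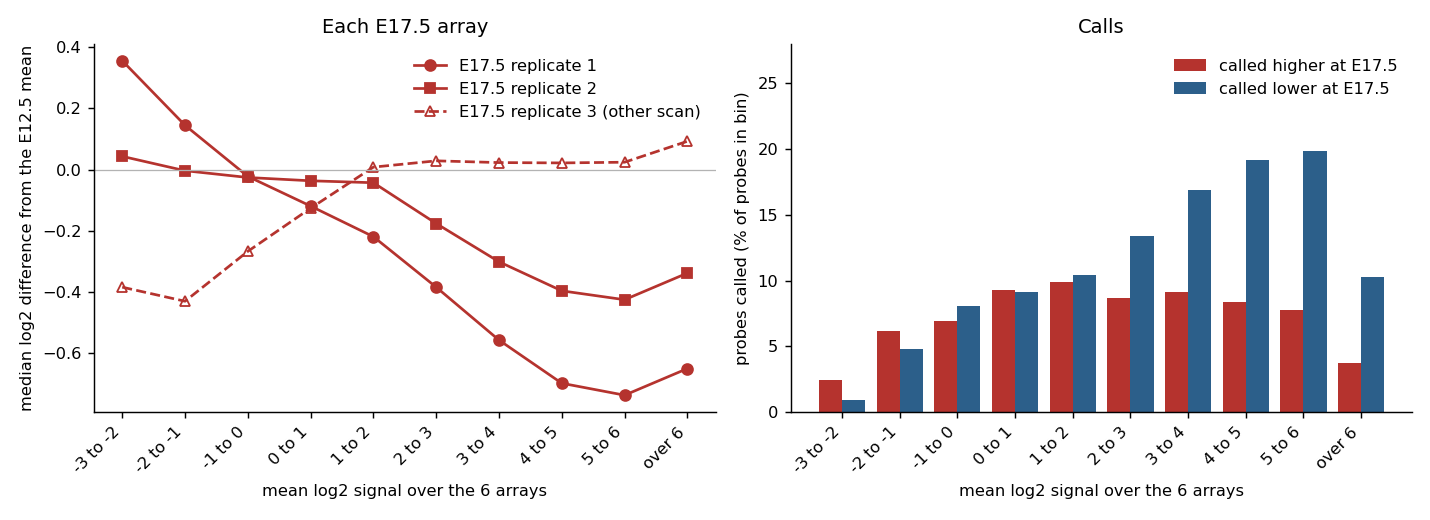
Left, median log2 difference of each E17.5 array from the E12.5 mean, in bins of mean log2 signal over the 6 arrays, for probes measured at both stages; right, percent of probes in each bin called higher or lower at E17.5. Bright probes lie 0.65 to 0.74 below the E12.5 mean on E17.5 replicate 1 for means above 4 and near 0 on replicate 3, and the share called lower peaks for means of 5 to 6.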

How the data were processed

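The deposited scanner files give, per the file headers, a linear spot intensity for each spot that the scanner software had background-subtracted and detrended, with no scaling between arrays; the headers name Feature Extraction 11.0.1.1 and the submitters' processing notes name 10.7.3.1. The authors also deposited a table of log2 values of the same arrays, whose normalization is not given in the sources used here and which served as an alternative. Control and outlier spots were left out, spots of a probe were averaged, and log2 of the intensity minus each array's 75th percentile was tested with limma 3.58.1 (R 4.3.3, lmFit and eBayes, two-sided) as 1 model of stage means for the 15 arrays together; 166 tested features lacked a value on at least 1 of the 6 arrays. The brightest probe stood for a symbol with several. Where no array of a stage had a feature well above background, its fold is a bound: the dim stage was set, array by array, to the lowest signal so marked or the probe's own, whichever was higher. The background alternatives used the median spot signal, since no mean signal is in the files. The steps were tested on simulated data. The labels do not say that replicate numbers pair the samples. Deviations of same-numbered arrays from their stage means correlated at -0.18, -0.34 and 0.22, and those of differently numbered arrays at -0.33 to 0.46. With 3 arrays per stage and shifts of whole arrays, these values cannot decide whether samples were paired.

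Named features were all called RefSeq features and, per family, the 4 highest and 4 lowest differences (2 for maker IDs; 3 human lincRNA risers and fallers and 4 mouse risers met the rule) among called features measured on all arrays of both stages without overlap. Features at a bound, members of gene lists and the numbered stretch were added after their values were seen. The comparison, its gene lists and this rule were chosen with earlier results of these data known. RefSeq names and windows are from GRCm38.p6; other probes keep the files' IDs. The alternatives tried are given with their effect in the closing section.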

Additional observations from a re-analysis of the deposited data

Results flagged for a closer look

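On E17.5 replicate 1, 55.8% of the negative-control spots were well above background, against 4.0% to 9.58% on the other 14 arrays. Only the alternative with background taken from negative-control probes used the signal of these spots. Their median signal on that array was 37.1. No test for a single outlying array was run.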

How the results depend on the processing

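Against 3086 features higher and 2845 lower, the counts moved by over 1.5 times as follows: 1948 higher for probes measured on all arrays of both stages, 1662 lower with no filter on dim probes, 1640 higher and 761 lower when only the 6 arrays set the spread, and 1518 higher and 1448 lower within the shared scan with E17.5 replicate 2 alone. Called probes per family, under the 6-array fit, numbered 3 RefSeq, 93 lincRNA exon, 6 mouse lincRNA, 9 human lincRNA, 14 ultraconserved and 31 with another accession. With E17.5 replicate 2 alone in the shared scan they were 113 lincRNA exon, 26 ultraconserved and 56 with another accession. The filter on both stages gave 146 lincRNA exon, 6 mouse and 9 human lincRNA probes, and normexp 8 mouse lincRNA probes. Leaving out 1 array at a time gave 2653 to 3490 higher and 2119 to 4225 lower; 4225 came without E17.5 replicate 3, which in this design equals scan as a block. By family that range was 9 to 18 RefSeq, 170 to 245 lincRNA exon, 10 to 18 mouse lincRNA, 18 to 31 human lincRNA, 27 to 52 ultraconserved and 80 to 126 other-accession probes. With replicate number as a block, 3121 were higher and 2796 lower, though the labels name no pairing by number. The cause of these shifts was not tested. Chosen after seeing the data: without E17.5 replicate 1 in filter and fit (2904 and 2361), and without both replicates 1 (3309 and 2562). Of 68 single features followed through 22 alternatives, 59 were called. Of these 30 were called in every alternative that gave a value, and 0 of the 59 changed sign. The 59 were picked by their calls in these same data and the alternatives reuse the same arrays, so a kept sign is no independent support. Of the 9 not called, 4 changed sign in at least 1 alternative (Actb, Tuba1b, Tfrc and MM9LINCRNAEXON11960-), and Gapdh lay at 0.00. Precision is limited by 3 arrays per stage, and below background only bounds exist.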
